A study of Mus musculus with 12 samples.

Results

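The genes described here are 36 mouse genes of glucose transport, glycolysis and the response to low oxygen, taken by name from a table of 24391 genes. They comprise 2 glucose transporters, 19 glycolytic enzymes, 4 regulators of glycolytic flux and lactate export, 2 prolyl hydroxylases of the hypoxia-inducible factors (HIF), 7 other HIF target genes and 2 HIF alpha subunits. All 36 were present in every sample and passed the filter on low counts in every comparison. Anterior palate tissue was dissected from C57BL/6 embryos at embryonic day 14.5 (E14.5) or 16.5 (E16.5) and its RNA was sequenced. Controls, labelled wild type, were compared with Shox2Cre;R26RFgf8 mutants, called mutants from here on, with 3 samples in each of the 4 groups and 12 in all. In the mutants, Cre made under the control of Shox2, a transcription factor gene of the anterior palate mesenchyme, switches on an Fgf8 transgene, so the cells altered directly are those with Shox2 activity, while the libraries hold all cells of the dissected tissue. Nothing in the labels tells if a sample came from 1 embryo or several, so the p-values reflect only the spread between these samples, which may be technical. In such bulk RNA, fewer cells of a type and less RNA per cell cannot be told apart.

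Glycolysis splits glucose into pyruvate in the cytosol, and lactate dehydrogenase then turns pyruvate into lactate, which regenerates the electron carrier that the pathway needs and lets it run without oxygen. Many of its steps are catalysed by isozymes from separate genes, some of them typical of muscle or brain. The HIF alpha subunits are hydroxylated and degraded when oxygen is present. When oxygen is scarce they persist and activate genes for glucose uptake, glycolysis and acid handling, and also genes for the very hydroxylases that mark them for degradation, which forms a feedback loop. Bone-forming tissue is known for high glycolytic activity, and collagen made by osteoblasts needs prolyl hydroxylases that are themselves HIF targets.

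Libraries held 78168839 to 125996587 counts in the E14.5 groups and 76417891 to 111946208 in the E16.5 groups. Levels are given as CPM, counts scaled to a common library total, as mean ± SD (n = 3). As a check on the labels, Fgf8, the growth factor of the transgene, lay at 0.316 ± 0.0938 CPM in controls and 10.8 ± 0.275 CPM in mutants at E14.5, and at 0.383 ± 0.110 and 16.1 ± 1.93 CPM at E16.5. Shox2 was detected in every group, with means of 179 to 213 CPM at E14.5 and 90.6 to 139.8 CPM at E16.5. Every library held both Xist, made in female cells, and Y-linked Ddx3y, so each held RNA of both sexes. The 2 transcripts moved with genotype in opposite directions, a difference whose part in the results was not tested. Xist was 780.0 ± 76.9 CPM in E14.5 controls, 486 ± 41 in E14.5 mutants, 404 ± 71.4 in E16.5 controls and 899 ± 13.4 in E16.5 mutants, and Ddx3y spanned 14.4 to 35.7, 61.6 to 81.1, 86.3 to 98.3 and 40.7 to 57.9 CPM in the same order. E16.5 mutant libraries 1 and 3 stood apart: summed CPM of 8 retina markers was 142, 11.1 and 76.6 in mutant libraries 1, 2 and 3 against 8.27 to 10.5 in the controls. For 11 neuron markers the sums were 345, 69.8 and 210.3 against 56.5 to 60.5, and for 11 epithelium markers 9584, 15637 and 12788 against 15069.7 to 15714. E16.5 results are therefore also given without those libraries, in a fit of the remaining samples of both ages. That fit leaves mutant library 2 alone and assumes that it varies like the other groups, those of E14.5 included. It thus differs from the main E16.5 test, which used the E16.5 samples alone, in more than the 2 libraries.

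In most of these families 1 isozyme gave most of the transcripts. Levels were compared between genes as CPM per kilobase of transcript, from 1 representative transcript a gene. In E14.5 controls, the pyruvate kinase gene Pkm stood at 516 ± 2.04 and the lactate dehydrogenase gene Ldha at 492 ± 23.8 CPM per kilobase, whereas Ldhb stood at 70.6 ± 4.99. Among the aldolases, which split the phosphorylated sugar, Aldoa was at 279.9 ± 8.06 and the brain-type gene Aldoc at 5.70 ± 0.317 CPM per kilobase. The liver-type phosphofructokinase gene Pfkl was at 55 ± 0.759, the muscle-type gene Pfkm at 32 ± 1.48 and the platelet-type gene Pfkp at 4.44 ± 0.157 CPM per kilobase. Of the hexokinases, which trap glucose in the cell, Hk1 was at 22.5 ± 1.83 and Hk2 at 9.68 ± 1.19. The transporter Slc2a1 (GLUT1), found in most embryonic tissues, was at 35.5 ± 3.01 and Slc2a3 (GLUT3), typical of neurons, at 7.45 ± 0.453 CPM per kilobase. Hif1a was at 48.3 ± 3.30 and Epas1, which encodes another HIF alpha subunit, at 8.38 ± 1.11 CPM per kilobase. These gaps were larger than the spread between samples.

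Reads of 6 of the 36 genes can be shared with near-identical copies, taken as transcripts of at least 95% identity over at least 50% of the length: Gapdh, Pgk1, Eno1, Pkm, Ldha and Ldhb. Gapdh has 71 such copies, and its counts are uncertain. Eno1 had a mean of only 0.184 to 0.214 CPM over the 4 groups, while Eno1b, whose transcript matches it at 99.5% over 85.6% of its length, had 127 ± 4.88 CPM in E14.5 controls. Eno1 alone therefore does not measure alpha-enolase, the enolase of most cells. Eno1b, named here after its values were seen, was lower in E14.5 mutants at 103 ± 5.67 CPM (log2 fold change -0.30 with SE 0.059, adjusted p = 0.0152), a call lost on leaving out control 1 (adjusted p = 0.0661), mutant 1 (adjusted p = 0.0556) or mutant 2 (adjusted p = 0.0700). At E16.5 it was 86.2 ± 2.97 CPM in controls and 96.6 ± 4.94 in mutants (adjusted p = 0.0773).

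At E14.5, 8 of the 36 genes differed between mutants and controls at an adjusted p under 0.05 in edgeR's quasi-likelihood test with Benjamini-Hochberg adjustment over all genes tested. Aldoc and Gapdh rose, and Hk1, Gpi1, Pgam2, Eno3, P4ha1 and P4ha2 fell. Of all 16650 genes tested, 7.52% were called, 2.95% higher and 4.57% lower. The median log2 fold change was -0.084 over the 36 genes, -0.073 over the 19 enzymes and 0.012 over all genes tested. Summed over the 19 enzymes, CPM ran from 4173 to 4377 in controls and 3979.6 to 4255 in mutants, so the groups overlapped. The count of lower genes was 3 without mutant library 1 or mutant library 2. The libraries numbered 3 deviated from their group means together, and a fit with a term for them also called Slc2a1 and Ldhb as higher (adjusted p = 0.0226 and 0.00440) and Aldoa, Ndrg1 and Epas1 as lower (adjusted p = 0.0336, 0.0424 and 0.00389).

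**Figure D1:**
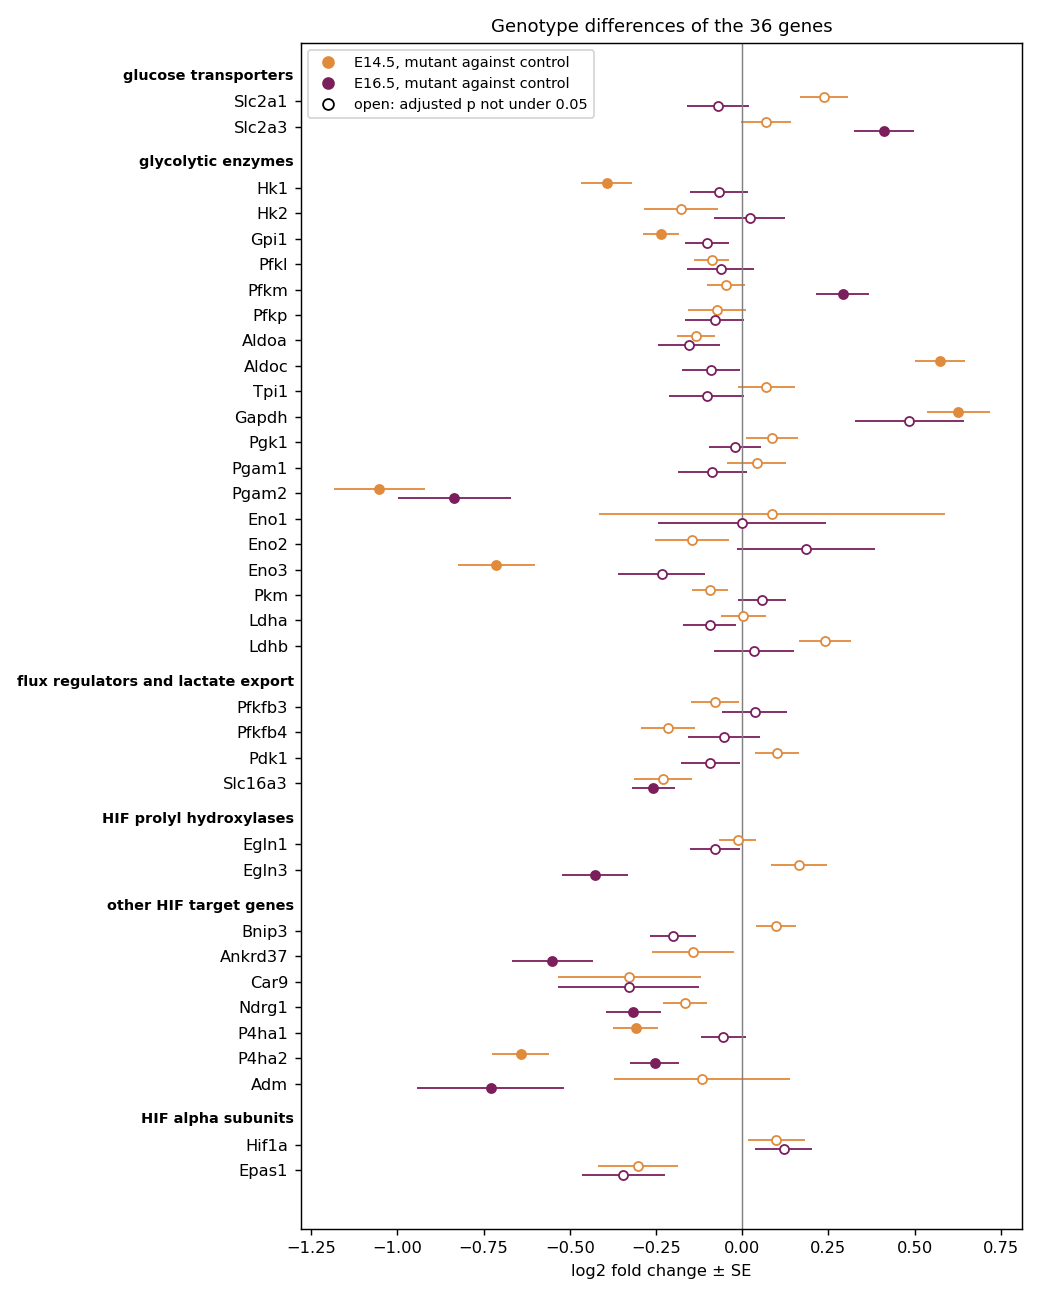
Log2 fold change ± SE of each of the 36 genes, mutant against control, at E14.5 (orange) and E16.5 (purple), with genes on the vertical axis grouped by role and filled points for an adjusted p under 0.05. The called enzymes lie on both sides of 0 at E14.5, while all 9 HIF hydroxylases and other HIF target genes lie below 0 at E16.5.

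The larger falls among the enzymes at E14.5 were in 2 muscle-type isozymes. Pgam2, the muscle phosphoglycerate mutase, was at 8.10, 6.48 and 6.53 CPM in controls 1, 2 and 3 and at 3.48, 3.13 and 3.57 CPM in mutants 1, 2 and 3 (log2 fold change -1.05 with SE 0.13, adjusted p = 9.99e-04). Eno3, the muscle enolase, was at 63.4, 49.4 and 50 CPM in controls and 31.1, 37.6 and 30.5 CPM in mutants (log2 fold change -0.71 with SE 0.11, adjusted p = 0.00405). Every mutant lay below every control for both genes, and control 1 was the highest sample in each case. Pgam1, the mutase of most tissues, had means of 60.4 and 62.1 CPM (adjusted p = 0.816). The summed level of 16 skeletal muscle markers was lower in mutants too. It was 30.9, 41.7 and 37.8 CPM in controls 1, 2 and 3 and 27.8, 23.1 and 24.2 CPM in mutants 1, 2 and 3. Control 1, the highest sample for Pgam2 and Eno3, had the lowest marker sum of the controls. Of the 16 markers, 1 was at 0 in all mutants and none was at 0 throughout the controls. Of the 15 tested, 13 had a negative log2 fold change, 7 had an unadjusted p under 0.05, none was called in edgeR or limma-voom and 5 were called in DESeq2. Their part in the falls of Pgam2 and Eno3 was not tested.

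Hexokinase and glucose phosphate isomerase, which carry out the opening steps of the pathway, were also lower in mutants at E14.5. Hk1 was at 87.6, 79.2 and 93.2 CPM in controls and 62.7, 64.9 and 70.4 CPM in mutants, with no overlap (log2 fold change -0.39 with SE 0.073, adjusted p = 0.0105). Gpi1, the isomerase, was at 284, 295 and 287 CPM in controls and 251, 238 and 247 CPM in mutants, a small difference between narrow groups that did not overlap (log2 fold change -0.23 with SE 0.052, adjusted p = 0.0245). The Hk1 call was lost on leaving out mutant 1 (adjusted p = 0.0586) or mutant 2 (adjusted p = 0.05004). The Gpi1 call was lost on leaving out control 1 (adjusted p = 0.0703), control 2 (adjusted p = 0.0527), control 3 (adjusted p = 0.0732), mutant 1 (adjusted p = 0.0751) or mutant 2 (adjusted p = 0.102).

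Aldoc and Gapdh rose in E14.5 mutants. Aldoc was at 15, 16.8 and 15.8 CPM in controls and 23.5, 23.4 and 23.9 CPM in mutants, with the mutants within 1 CPM of each other and all above the controls (log2 fold change 0.57 with SE 0.072, adjusted p = 9.93e-04). Aldoa, by far the more abundant aldolase, had 423 ± 12.2 CPM in controls and 385 ± 12.9 in mutants (adjusted p = 0.177). Gapdh, the glyceraldehyde phosphate dehydrogenase gene, was at 46.3, 43.9 and 41.3 CPM in controls and 64, 77.8 and 61.2 CPM in mutants, again without overlap (log2 fold change 0.63 with SE 0.091, adjusted p = 0.00258), with the uncertainty from its copies stated above. Slc2a1 was at 116 ± 9.82 and 137 ± 5.97 CPM, every mutant above every control, and did not pass the test (log2 fold change 0.24, adjusted p = 0.0722). Ldhb, the heart-type lactate dehydrogenase, was at 92 ± 6.50 and 109 ± 8.62 CPM (adjusted p = 0.0838) and was called on leaving out mutant 3 (adjusted p = 0.0296). Ldha had 869.5 ± 42.1 CPM in controls and 871 ± 49.5 in mutants (log2 fold change 0.0025, SE 0.065). Epithelium markers, none at 0, summed to 1224 to 2016 CPM in E14.5 controls and 2074 to 2177 CPM in mutants, without overlap. All 11 had a positive log2 fold change, with a median of 0.39, and 1 was called. Their part in the rises of Aldoc and Gapdh was not tested.

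**Figure D2:**
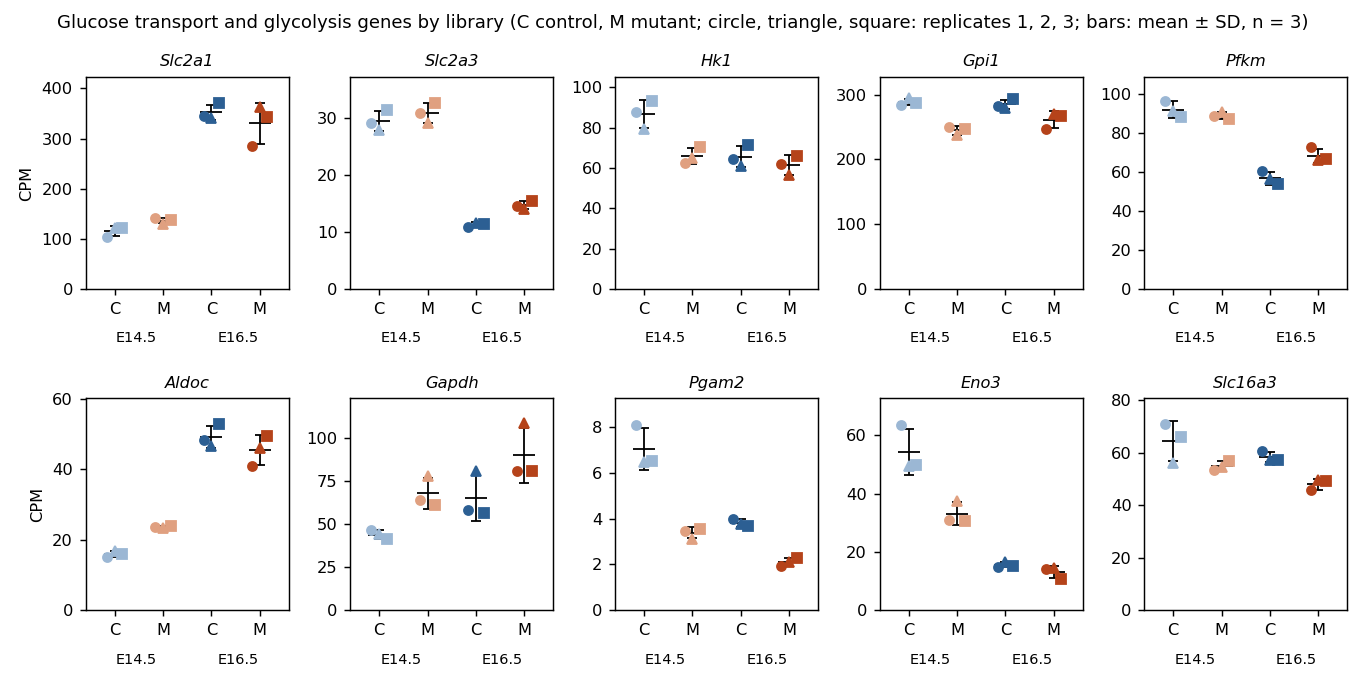
CPM of 10 glucose transport, glycolysis and lactate export genes in each of the 12 libraries (C, control; M, mutant; marker shape gives the replicate number; bars are mean ± SD, n = 3), on linear axes from 0. The groups of Slc2a1, Hk1, Gpi1, Aldoc, Gapdh, Pgam2 and Eno3 do not overlap at E14.5, nor do those of Slc2a3, Gpi1, Pfkm, Pgam2, Eno3 and Slc16a3 at E16.5.

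Among the 9 HIF feedback and target genes at E14.5, only the collagen prolyl hydroxylase subunits passed the test. P4ha2 was at 97.8, 78.3 and 88.6 CPM in controls and 59.6, 54.3 and 55.5 CPM in mutants (log2 fold change -0.64 with SE 0.083, adjusted p = 0.00121). P4ha1 was at 211, 181 and 192 CPM in controls and 154, 157 and 160.1 CPM in mutants (log2 fold change -0.31 with SE 0.065, adjusted p = 0.0190), and its call was lost on leaving out control 1 (adjusted p = 0.0711), mutant 1 (adjusted p = 0.0896) or mutant 2 (adjusted p = 0.0728). In both genes every mutant lay below every control, and the mutants were closer together than the controls. Osteoblast markers were lower too: 9 genes, none at 0, summed to 13630.0 to 16802 CPM in controls and 6089 to 7298 CPM in mutants, and all 9 were called lower. Their part in the falls of P4ha1 and P4ha2 was not tested. The remaining HIF feedback and target genes, Egln1, Egln3, Bnip3, Ankrd37, Car9, Ndrg1 and Adm, had log2 fold changes from -0.33 (Car9, SE 0.21) to 0.17 (Egln3, SE 0.082) and none of these 7 was called in edgeR, limma-voom or DESeq2, with 1 of them (Ndrg1) at an unadjusted p under 0.05. Ankrd37 was at 6.70, 5.79 and 5.63 CPM in E14.5 controls and 5.12, 5.88 and 5.39 CPM in E14.5 mutants, and Bnip3 at 53.7, 51.2 and 49 and then 55.6, 55.3 and 53.5 CPM. Ndrg1 was at 53.9, 53.3 and 56.2 CPM in controls and 49.5, 45.1 and 51.1 CPM in mutants, with no overlap but a small gap. Adm was at 1.08, 1.18 and 0.905 CPM in controls and 1.05, 1.16 and 0.711 CPM in mutants, the lowest level of these genes, resting on as few as 60 counts in a library.

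At E16.5, 5 of the 9 HIF feedback and target genes fell in mutants and none rose. The 5 were Egln3, Ankrd37, Ndrg1, P4ha2 and Adm. All 9 had a negative log2 fold change, with a median of -0.32 against 0.011 over all genes tested. Of all 17169 genes tested at E16.5, 27.9% were called, 12.2% higher and 15.7% lower. Over the 36 genes the counts were 2 higher and 7 lower, so the share called was close to that of all genes, and the 19 enzymes had 1 higher and 1 lower with a median of -0.068. The count of lower genes was 2 without control library 1 and 3 without control library 2, and that of higher genes 1 without control library 3 or mutant library 1. Without mutant libraries 1 and 3 only 1 mutant library was left, and the higher genes changed. Slc2a3 and Pfkm lost their calls there and Gapdh, not called in the main test, gained one. Beside these falls, the summed epithelium markers were lower in mutant libraries 1 and 3. Of the 11 markers, 9 had a negative and 2 a positive log2 fold change, and 4 were called lower. Some were low in mutant library 2 as well. Krt8 was at 161, 256 and 194 CPM in mutants 1, 2 and 3 and at 419, 438 and 397 CPM in controls. The 10 endothelium markers, none at 0, summed to 257 to 279 CPM in controls and 360.1 to 461 CPM in mutants. The osteoblast markers summed to 5257 to 6329 and 927 to 1487 CPM, with all 9 called lower, and 10 stress and dissociation genes to 537, 1695 and 1112 CPM in mutants 1, 2 and 3 against 1205 to 1355 in controls. The part of these markers in the HIF target values was not tested.

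Egln3 encodes a HIF prolyl hydroxylase that is itself strongly induced by HIF. At E16.5 it was at 78.1, 73.5 and 80.7 CPM in controls and 48.5, 64.9 and 56.9 CPM in mutants, with the groups apart and mutant 1 the lowest (log2 fold change -0.43 with SE 0.097, adjusted p = 0.0125). The call was lost on leaving out control 1 (adjusted p = 0.0503). Egln1, the main oxygen sensor of this family, was at 143, 141 and 153 CPM in controls and 124, 139 and 145 CPM in mutants, with overlapping groups (log2 fold change -0.079, adjusted p = 0.465).

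Ankrd37, an ankyrin repeat gene known as a HIF target, was at 18.2, 17 and 14.6 CPM in E16.5 controls and 12.1, 10.9 and 10.3 CPM in mutants, so that the highest mutant was below the lowest control (log2 fold change -0.55 with SE 0.12, adjusted p = 0.00930). It stayed called when any library was left out, and also without mutant libraries 1 and 3 (log2 fold change -0.58, adjusted p = 0.0308). Ndrg1, a stress-responsive gene of differentiating cells, was at 298, 288 and 312 CPM in controls and 211, 255 and 245 CPM in mutants, with mutant 1 the lowest (log2 fold change -0.32 with SE 0.08, adjusted p = 0.0205). Adm, which encodes the vessel-dilating peptide adrenomedullin, was at 2.69, 2.19 and 2.64 CPM in controls and 1.75, 1.25 and 1.43 CPM in mutants, low throughout but not overlapping (log2 fold change -0.73 with SE 0.21, adjusted p = 0.0354). P4ha2 was at 63.4, 57 and 56.7 CPM in controls and 49.9, 48.1 and 48.1 CPM in mutants, again with every mutant below every control (log2 fold change -0.25 with SE 0.071, adjusted p = 0.0302). The call of Ndrg1 was lost on leaving out control 1 (adjusted p = 0.0722), control 2 (adjusted p = 0.0649) or control 3 (adjusted p = 0.0736). That of P4ha2 was lost on leaving out control 1 (adjusted p = 0.116), control 2 (adjusted p = 0.0629), mutant 2 (adjusted p = 0.0523) or mutant 3 (adjusted p = 0.0834), and that of Adm on leaving out control 1 (adjusted p = 0.116), control 2 (adjusted p = 0.0587), control 3 (adjusted p = 0.0942), mutant 2 (adjusted p = 0.0546) or mutant 3 (adjusted p = 0.0981).

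Without mutant libraries 1 and 3, the log2 fold change at E16.5 was -0.23 for Egln3 (adjusted p = 0.118) and -0.21 for Ndrg1 (adjusted p = 0.126). It was -0.27 for P4ha2 (adjusted p = 0.160) and -0.97 for Adm (adjusted p = 0.0660). All 4 kept a negative value and none was called, with 1 mutant library left.

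Besides Egln1, the targets Bnip3, Car9 and P4ha1 were below 0 without passing the test. Bnip3, which tags mitochondria for removal, was at 90, 91 and 85.8 CPM in controls and 76.2, 80.6 and 71.7 CPM in mutants at E16.5, with no overlap (log2 fold change -0.20, adjusted p = 0.0566). Same-numbered E16.5 libraries deviated from their group means together, most strongly those numbered 3, though no label pairs them. In a fit with a block for the number, Bnip3 was called (adjusted p = 0.00813). It was also called on leaving out mutant 2 (adjusted p = 0.0411). Car9, a carbonic anhydrase that exports acid, had 3.62 ± 0.628 and 2.82 ± 0.450 CPM (adjusted p = 0.268). P4ha1 was at 150.3, 143 and 149.6 CPM in controls and 140.1, 135 and 145 CPM in mutants (adjusted p = 0.576), with overlapping groups.

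**Figure D3:**
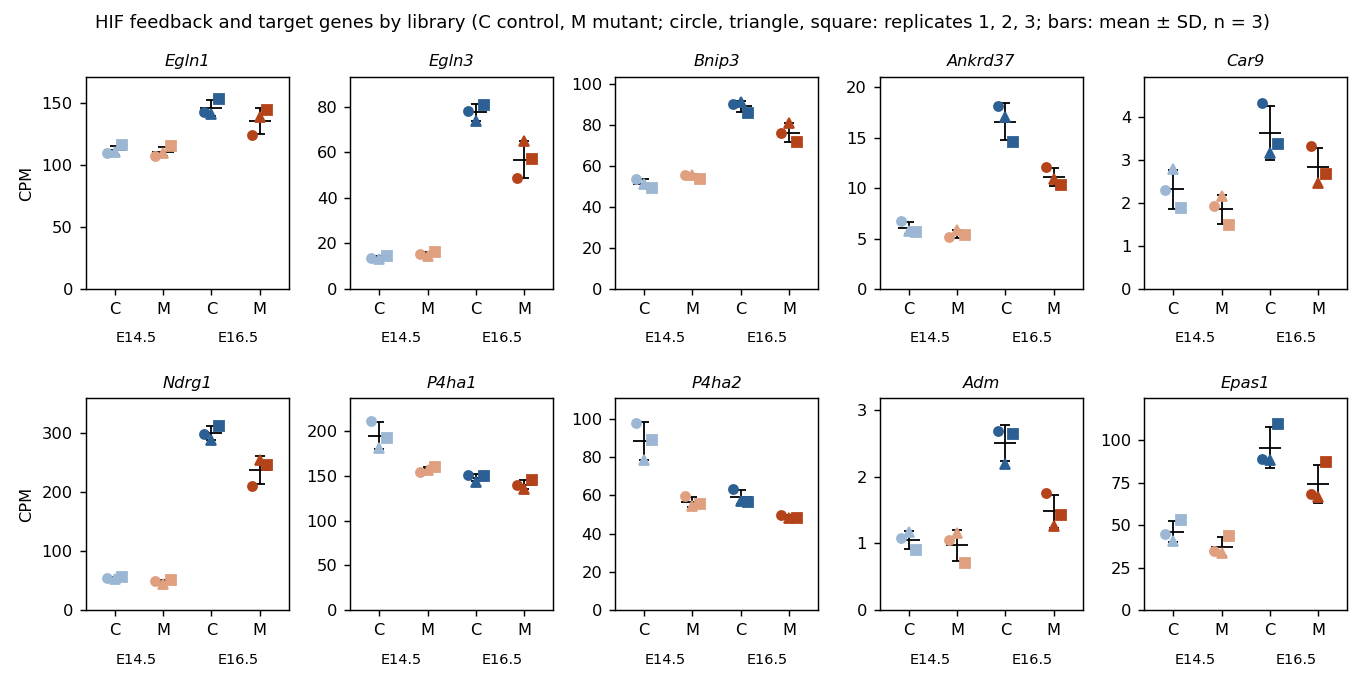
CPM of 9 HIF feedback and target genes and of Epas1 in each of the 12 libraries (C, control; M, mutant; marker shape gives the replicate number; bars are mean ± SD, n = 3), on linear axes from 0. Egln3, Ankrd37, Ndrg1 and Adm are higher at E16.5 than at E14.5 in both genotypes, with the E16.5 mutants below the E16.5 controls, while P4ha1 and P4ha2 are highest in E14.5 controls.

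The promoters of these genes were examined for the core of the hypoxia response element, the short sequence to which HIF binds. The core was searched as the letters ACGTG, and separately in its other common form, written as GCGTG, on both strands of the 300 bases from 250 before to 50 after each gene start in RefSeq promoters of build GRCm38.p6. Of the 36 genes, 33 were in that table, with 46 promoters; Slc2a3, Ndrg1 and Epas1 were not matched. At least 1 match was in 37 of the 46 promoters (80.4%), against 43.8% of all 32851 promoters, and ACGTG alone was in 52.2% against 19.6%. All 8 matched HIF feedback and target genes and 15 of the 19 enzymes held a match. The promoters of the 36 genes also held more CpG, with a median of 5.6 CpG per 100 bases against 2.4 over all promoters, and both motifs contain a CpG, so these shares are a description of sequence and not of binding.

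The 250 bases before the start are shown for 4 HIF target genes lower in E16.5 mutants, for Ldha, a textbook HIF target that did not pass the test at either age, and for Pgam2, which fell at both ages and holds no match. Each reads 5′ to 3′ on the gene's strand, with matches to either form in capitals, as their reverse complement where the match lies on the other strand. Matches to the former on both strands overlap in CACGTG, a motif also bound by other factors such as MYC.
Egln3 (chr12:54203875-54204124, minus strand): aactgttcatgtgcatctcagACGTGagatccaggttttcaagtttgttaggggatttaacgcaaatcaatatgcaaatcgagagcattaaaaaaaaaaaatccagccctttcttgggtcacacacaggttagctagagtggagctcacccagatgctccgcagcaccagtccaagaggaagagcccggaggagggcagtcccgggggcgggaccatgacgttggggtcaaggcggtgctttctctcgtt
Ankrd37 (chr8:45999851-46000100, minus strand): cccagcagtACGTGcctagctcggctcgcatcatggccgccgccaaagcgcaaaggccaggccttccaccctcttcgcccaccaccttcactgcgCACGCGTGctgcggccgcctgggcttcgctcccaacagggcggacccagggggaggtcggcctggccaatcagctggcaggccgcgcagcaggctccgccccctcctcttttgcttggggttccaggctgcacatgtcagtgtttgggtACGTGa
Adm (chr7:110627407-110627656, plus strand): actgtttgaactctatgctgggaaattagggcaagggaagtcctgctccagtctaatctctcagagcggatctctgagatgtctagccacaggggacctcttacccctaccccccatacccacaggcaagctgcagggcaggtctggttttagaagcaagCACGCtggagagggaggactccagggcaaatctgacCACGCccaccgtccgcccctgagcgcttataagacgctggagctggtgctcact
P4ha2 (chr11:54100674-54100923, plus strand): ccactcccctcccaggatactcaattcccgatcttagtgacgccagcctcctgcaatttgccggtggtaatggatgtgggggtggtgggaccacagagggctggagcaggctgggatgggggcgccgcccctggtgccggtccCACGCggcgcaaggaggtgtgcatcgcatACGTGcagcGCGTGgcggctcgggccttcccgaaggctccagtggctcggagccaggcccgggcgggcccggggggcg
Ldha (chr7:46845554-46845803, plus strand): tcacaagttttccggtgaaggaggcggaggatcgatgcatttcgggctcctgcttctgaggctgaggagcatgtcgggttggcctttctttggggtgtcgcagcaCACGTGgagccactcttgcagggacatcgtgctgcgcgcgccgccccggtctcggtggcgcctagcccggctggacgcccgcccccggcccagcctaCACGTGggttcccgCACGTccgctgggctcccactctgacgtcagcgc
Pgam2 (chr11:5803797-5804046, minus strand): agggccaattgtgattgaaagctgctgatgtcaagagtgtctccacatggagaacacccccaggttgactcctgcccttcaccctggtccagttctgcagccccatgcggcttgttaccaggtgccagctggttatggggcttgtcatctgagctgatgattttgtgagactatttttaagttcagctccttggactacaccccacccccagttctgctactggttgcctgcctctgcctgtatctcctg
The genes with and without a genotype difference both include promoters with matches, and the absence of a match in Pgam2 says only that these letters are not in this window.

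Among transporters and enzymes at E16.5, Slc2a3 and Pfkm rose and Pgam2 fell. Slc2a3 was at 10.8, 11.6 and 11.3 CPM in controls and 14.6, 14.1 and 15.5 CPM in mutants, with every mutant above every control (log2 fold change 0.41 with SE 0.088, adjusted p = 0.00943). Its more abundant relative Slc2a1 was at 345, 342 and 370.2 CPM in controls and 285, 363 and 343 CPM in mutants, with overlapping groups (log2 fold change -0.07, SE 0.09). Pfkm was at 60.5, 56.4 and 53.9 CPM in controls and 72.7, 66.1 and 66.5 CPM in mutants, again without overlap (log2 fold change 0.29 with SE 0.077, adjusted p = 0.0238). In Slc2a3 and Pfkm the mutant library 2, which held few neuron and retina transcripts, was the lowest of the mutants. Without mutant libraries 1 and 3 the log2 fold change was 0.34 for Slc2a3 (adjusted p = 0.0506) and 0.24 for Pfkm (adjusted p = 0.0804). Both genes are used by neurons, and the part of neuron and retina RNA in these values was not tested. The Pfkm call was also lost on leaving out control 2 (adjusted p = 0.0828), control 3 (adjusted p = 0.0691) or mutant 1 (adjusted p = 0.0751).

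Pgam2 was at 3.99, 3.77 and 3.67 CPM in E16.5 controls and 1.92, 2.09 and 2.30 CPM in mutants, so it was lower in every mutant at both ages (log2 fold change -0.83 with SE 0.16, adjusted p = 0.00628), and it was called without mutant libraries 1 and 3 as well (adjusted p = 0.0130). The 16 muscle markers summed to 20 to 29.3 CPM in controls and 17.5 to 22.1 CPM in mutants, overlapping, with 1 of 16 called lower. Eno3 was at 14.9, 16.5 and 15.2 CPM in controls and 14, 14.3 and 10.6 CPM in mutants, every mutant below every control, without passing the test (log2 fold change -0.23, adjusted p = 0.207). Slc16a3, the exporter of lactate in glycolytic cells, was at 60.5, 57.4 and 57.1 CPM in controls and 45.6, 49.4 and 49 CPM in mutants, without overlap (log2 fold change -0.26 with SE 0.063, adjusted p = 0.0167). At E14.5 it was at 71, 56 and 66 CPM in controls and 53.3, 54.4 and 56.8 CPM in mutants, with overlapping groups (adjusted p = 0.134), and was called on leaving out control 2 (adjusted p = 0.0199). The E16.5 call was lost on leaving out control 1 (adjusted p = 0.0760), control 2 (adjusted p = 0.0572) or mutant 1 (adjusted p = 0.0575), and also with both mutant libraries 1 and 3 removed (adjusted p = 0.238). Gapdh was at 58.3, 80.6 and 56.5 CPM in controls and 80.4, 108 and 80.8 CPM in mutants, with overlap (log2 fold change 0.48, adjusted p = 0.0514). It was called with a block for the replicate number (adjusted p = 4.67e-04) and on leaving out control 2 (adjusted p = 0.0179). A fit of all 12 samples called it as well, as did DESeq2's Wald test, limma-voom and upper-quartile factors. So did a fit without the low-count filter and one with a term for the libraries numbered 3. In all, 9 of 17 alternatives called it, that without mutant libraries 1 and 3 among them.

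Aldoc, Hk1 and Gpi1, called at E14.5, were not called at E16.5. Aldoc was at 48.3, 46.5 and 52.8 CPM in E16.5 controls and 40.9, 46.1 and 49.5 CPM in mutants, overlapping (log2 fold change -0.091, adjusted p = 0.459). Hk1 was at 64.4, 61.2 and 71.4 and then 62, 56.6 and 66.2 CPM in the same order (log2 fold change -0.068), and Gpi1 at 283, 279.8 and 293 and 247, 271 and 267 CPM, every mutant below every control (log2 fold change -0.10, adjusted p = 0.280). Slc2a3 and Pfkm, called at E16.5 alone, had E14.5 values of 29.2, 27.8 and 31.4 CPM in controls and 30.9, 29.1 and 32.7 in mutants for Slc2a3, and of 96.8, 91.3 and 88.4 and 88.9, 91 and 87.4 CPM for Pfkm. The groups of both genes overlapped there.

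Of the 19 enzymes, 12 were called in neither genotype comparison. For Pkm, the E14.5 levels were 1254 ± 4.96 CPM in controls and 1176 ± 21.2 in mutants, and the E16.5 levels 1008 ± 37.3 and 1032 ± 71.6 CPM. Tpi1, the triose phosphate isomerase gene, had 611 ± 46.5 and 640.2 ± 59.6 CPM at E14.5 and 749 ± 77.8 and 686 ± 77.7 CPM at E16.5. Pgk1, the phosphoglycerate kinase gene on the X chromosome, had 67.6 ± 2.87 and 71.8 ± 6.42 CPM at E14.5 and 82.2 ± 5.63 and 79.8 ± 4.34 CPM at E16.5. Of the regulators, Pfkfb3 and Pfkfb4, which set the level of the activator of phosphofructokinase, and Pdk1, which holds pyruvate back from the mitochondria, were not called either and had log2 fold changes between -0.22 (Pfkfb4 at E14.5, adjusted p = 0.127) and 0.10 (Pdk1 at E14.5, adjusted p = 0.386). Also uncalled in both comparisons were Hk2, Pfkl, Pfkp, Aldoa, Pgam1, Eno1, Eno2, Ldha and Ldhb, with log2 fold changes from -0.18 (Hk2 at E14.5, SE 0.11) to 0.24 (Ldhb at E14.5, SE 0.075).

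The HIF alpha subunit genes Hif1a and Epas1 did not pass the test at either age. Hif1a was at 228 ± 15.6 CPM in controls and 244 ± 26.8 in mutants at E14.5, and at 245 ± 20 and 262 ± 19.9 CPM at E16.5 (log2 fold changes 0.098, SE 0.082, and 0.12, SE 0.083). Epas1, prominent in endothelium, was at 88.9, 88.6 and 109 CPM in E16.5 controls and 68.4, 66.9 and 87.1 CPM in mutants, every mutant below every control (log2 fold change -0.34, adjusted p = 0.0655). With the block for the replicate number Epas1 was called at E16.5 (adjusted p = 0.00146), as it was on leaving out mutant 3 (adjusted p = 0.0174). At E14.5 it had 46.2 ± 6.12 and 37.5 ± 5.60 CPM, with overlapping groups (log2 fold change -0.30, adjusted p = 0.152), and was called on leaving out mutant 3 (adjusted p = 0.0290). The endothelium markers summed to 618 to 656 CPM in E14.5 controls and 504 to 539 CPM in E14.5 mutants. Their E16.5 sums, given above, were higher in mutants. The part of these markers in the Epas1 values was not tested. HIF activity is set mainly by protein stability, which these RNA data do not measure.

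Whether the genotype effect differed between the ages was tested as an interaction in a fit of all 12 samples, in which 22.3% of 17550 genes were called, 9.97% with a more positive effect at E16.5 and 12.4% with a more negative one. Among the 36 genes, 3 were called with a more positive effect at E16.5 (Slc2a3, Pfkm and P4ha2) and 3 with a more negative one (Aldoc, Egln3 and Bnip3). For Aldoc the effect was 0.57 at E14.5 and -0.091 at E16.5 on the log2 scale, and the difference of -0.69 (SE 0.11, adjusted p = 8.26e-04) was called whichever library was left out. For Egln3 the effect was 0.17 at E14.5, not called alone, and then -0.43. Its difference of -0.61 (SE 0.13, adjusted p = 0.00503) was also called whichever library was left out. With replicates 1 and 2 alone it was not called (adjusted p = 0.0688). P4ha2, lower in mutants at both ages, had a smaller fall at E16.5 (difference 0.37, SE 0.11, adjusted p = 0.0317), a call lost on leaving out E14.5 control 1 (adjusted p = 0.0806), E14.5 control 3 (adjusted p = 0.0627), E14.5 mutant 2 (adjusted p = 0.0589), E14.5 mutant 3 (adjusted p = 0.0504), E16.5 control 2 (adjusted p = 0.0618), E16.5 control 3 (adjusted p = 0.0531) or E16.5 mutant 1 (adjusted p = 0.0533). The Pfkm call was lost on leaving out E14.5 control 1 (adjusted p = 0.0585) and the Bnip3 call on leaving out E14.5 mutant 1 (adjusted p = 0.0588), E16.5 control 1 (adjusted p = 0.0517), E16.5 control 2 (adjusted p = 0.0587) or E16.5 mutant 3 (adjusted p = 0.0524). The Slc2a3 call was lost on leaving out E14.5 control 1 (adjusted p = 0.0763), E14.5 control 3 (adjusted p = 0.112), E14.5 mutant 1 (adjusted p = 0.0643), E14.5 mutant 2 (adjusted p = 0.0732), E16.5 control 1 (adjusted p = 0.0711), E16.5 control 3 (adjusted p = 0.0532), E16.5 mutant 1 (adjusted p = 0.0544) or E16.5 mutant 3 (adjusted p = 0.0696). The Slc2a3 call was also lost with DESeq2 size factors and in limma-voom, and in 12 of 22 alternatives in all. With replicates 1 and 2 alone the calls of Slc2a3, Pfkm and P4ha2 were lost. No difference between the ages was called for Pgam2 (0.19, SE 0.19, adjusted p = 0.510).

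As among all genes tested, more of the 36 genes were called between the ages than between the genotypes. By genotype, 7.52% of all genes were called at E14.5 and 27.9% at E16.5. The age tests came from a fit of 12 samples and the genotype tests from 6 samples each. In controls 26 of the 36 genes changed between E14.5 and E16.5, 18 higher and 8 lower, where 66.4% of 17550 genes were called, 34.3% higher and 32.1% lower. Mutants had 14 higher and 7 lower, and 4 lower without E14.5 mutant library 1 or 2 or without E16.5 mutant library 1 or 3, where 51.6% of genes were called, 27.2% higher and 24.4% lower. These comparisons share their samples with the genotype comparisons. The median log2 fold change of the 36 genes was 0.21 in controls and 0.13 in mutants, and that of the 9 HIF feedback and target genes 0.79 and 0.61, against -0.0028 and 0.0032 over all genes tested. The 39 other HIF targets had smaller medians, 0.24 in controls with 18 higher and 11 lower and 0.11 in mutants with 17 higher and 7 lower.

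Egln3 and Ndrg1 had the largest estimated rises with age of the 36 genes in controls. Egln3 rose from 13.4, 13.1 and 14.4 to 78.1, 73.5 and 80.7 CPM (log2 fold change 2.51 with SE 0.096, adjusted p = 1.51e-10). In mutants it rose from 15.3, 14.6 and 16 CPM (log2 fold change 1.89 with SE 0.095, adjusted p = 3.85e-09). Ndrg1 rose from 53.9, 53.3 and 56.2 to 298, 288 and 312 CPM in controls (log2 fold change 2.46 with SE 0.078, adjusted p = 3.09e-11). For neither gene did the ages overlap. Ankrd37, Adm and Bnip3 rose by 1.46, 1.24 and 0.79 on the log2 scale in controls and by 1.02, 0.61 and 0.47 in mutants, and Epas1 by 1.05 and 0.98. Egln1 rose by 0.38 and 0.29, so that per kilobase Egln3, at 5.13 ± 0.242 against 31.2 ± 0.983 for Egln1 in E14.5 controls, came to 29.1 ± 1.37 against 40.6 ± 1.78 CPM per kilobase in E16.5 controls.

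P4ha1 and P4ha2 were the 2 of the 9 HIF feedback and target genes that fell with age, with log2 changes of -0.40 and -0.58 with age in controls and -0.17 and -0.21 in mutants. In mutants the calls of P4ha1 and P4ha2 were lost whichever mutant library was left out, though the log2 fold changes stayed negative. The osteoblast markers, none at 0, fell with age as well, from 13630.0 to 16802 to 5257 to 6329 summed CPM in controls, and the epithelium markers, none at 0, rose from 1224 to 2016 to 15069.7 to 15714 summed CPM. The 10 stress and dissociation genes, none at 0, were all called higher with age in both genotypes, with sums from 339 to 498 at E14.5 to 1205 to 1355 CPM at E16.5 in controls and median log2 fold changes of 2.54 in controls and 2.59 in mutants. All 10 endothelium markers had a negative log2 fold change with age in both genotypes, with 10 called lower in controls and 7 in mutants. The part of these lists in the changes of HIF targets with age was not tested.

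Several related genes moved in opposite directions with age. Slc2a1 rose (log2 fold change 1.60 with SE 0.091, adjusted p = 5.43e-09) while Slc2a3 fell (log2 fold change -1.39 with SE 0.075, adjusted p = 3.35e-09) in controls, and both did the same in mutants, by 1.27 and -1.07. Pfkp rose by 1.52 and 1.49 on the log2 scale in controls and mutants while Pfkm changed by -0.70 and -0.38. Aldoc rose by 1.63 and 0.95, and Aldoa by 0.45 and 0.41. The muscle-type genes fell, with log2 fold changes of -1.81 and -1.35 for Eno3 and -0.88 and -0.69 for Pgam2. Pdk1 rose by 0.71 and 0.50, and Pkm fell, with log2 fold changes of -0.32 and -0.19. Neuron markers, none at 0, summed to 148 to 226 CPM in E14.5 controls and 56.5 to 60.5 in E16.5 controls, and muscle markers, none at 0 in either, to 30.9 to 41.7 and 20 to 29.3. Their part in the falls of Slc2a3, Pfkm, Eno3 and Pgam2 was not tested.

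**Figure D4:**
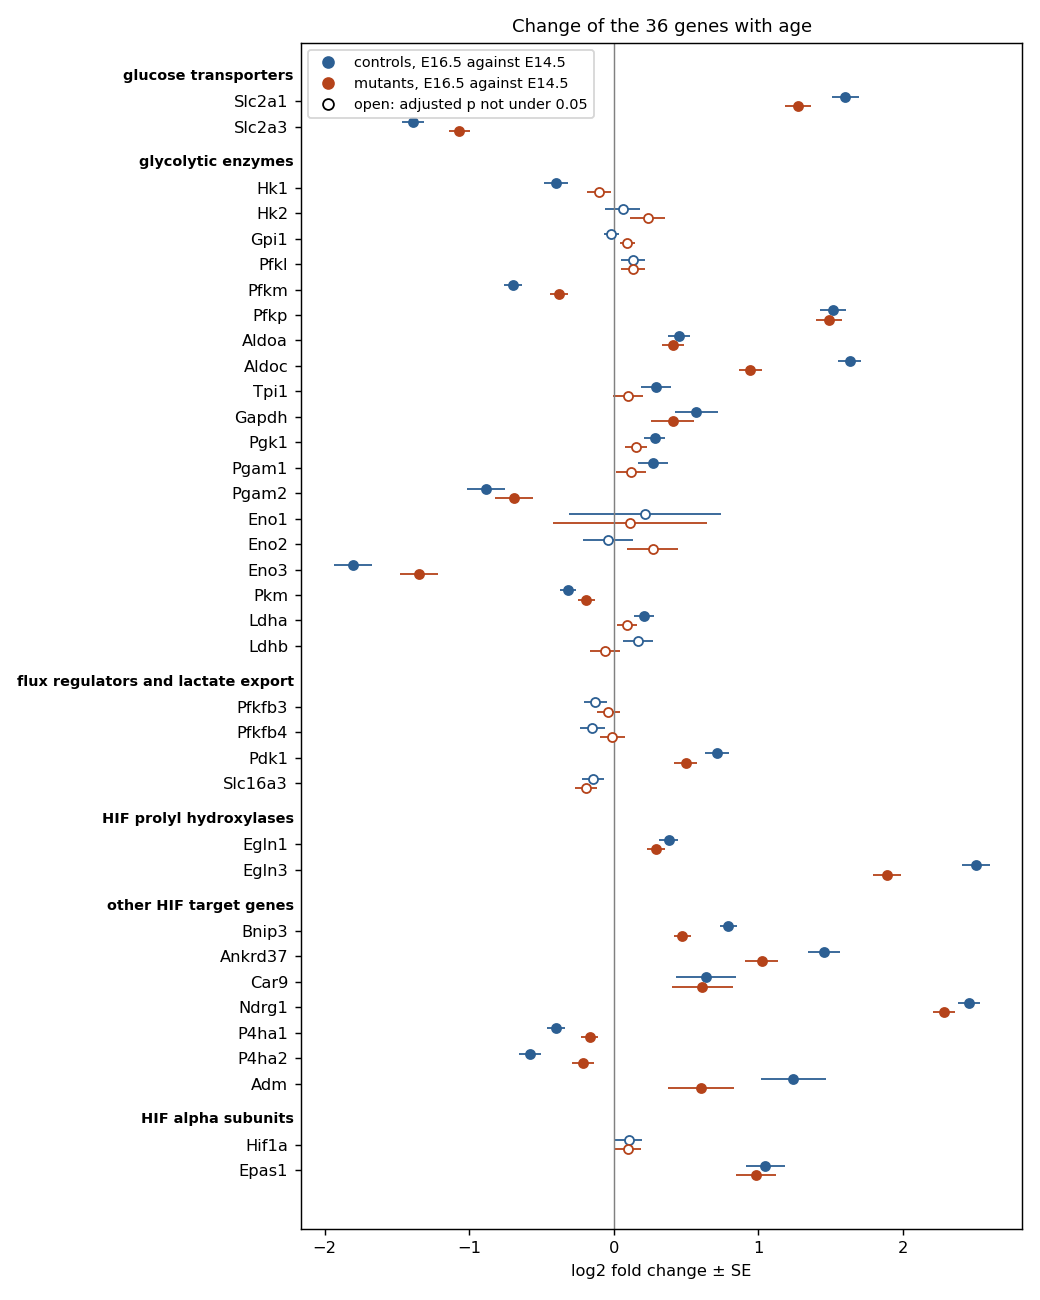
Log2 fold change ± SE of each of the 36 genes at E16.5 against E14.5, in controls (blue) and mutants (red), with genes on the vertical axis grouped by role and filled points for an adjusted p under 0.05. Egln3, Ndrg1, Slc2a1, Pfkp and Aldoc lie far to the right of 0 and Slc2a3, Eno3 and Pgam2 to the left in both genotypes.

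Smaller changes with age in controls included Hk1 (-0.40), Gapdh (0.57), Pgk1 (0.28), Tpi1 (0.29), Pgam1 (0.27), Ldha (0.21) and Car9 (0.64), all on the log2 scale. Some were decided by a library: the Tpi1 call was lost on leaving out E14.5 control 2 (adjusted p = 0.0506), E14.5 control 3 (adjusted p = 0.0923), E16.5 control 1 (adjusted p = 0.0676) or E16.5 control 2 (adjusted p = 0.0952). That of Pgam1 was lost on leaving out E14.5 control 2 (adjusted p = 0.0638), E14.5 control 3 (adjusted p = 0.120), E16.5 control 1 (adjusted p = 0.114) or E16.5 control 2 (adjusted p = 0.0838), that of Ldha on leaving out E14.5 control 3 (adjusted p = 0.0672) or E16.5 control 2 (adjusted p = 0.0558) and that of Car9 on leaving out E14.5 control 3 (adjusted p = 0.0668) or E16.5 control 1 (adjusted p = 0.0755). Same-numbered control libraries also deviated together across the ages, most strongly those numbered 3. With a block for the number Ldhb, Pfkfb3 and Pfkfb4 were called (adjusted p = 0.0139, 0.0328 and 0.0492, against 0.176, 0.181 and 0.151 without it). Ldhb was called on leaving out E16.5 control 3 (adjusted p = 0.0264) too. In mutants the call of Pkm was lost on leaving out E14.5 mutant 1 (adjusted p = 0.101), E14.5 mutant 2 (adjusted p = 0.0617), E16.5 mutant 1 (adjusted p = 0.113) or E16.5 mutant 3 (adjusted p = 0.0872), that of Gapdh on leaving out E14.5 mutant 1 (adjusted p = 0.0762), E14.5 mutant 3 (adjusted p = 0.0877) or E16.5 mutant 2 (adjusted p = 0.111), that of Car9 on leaving out E14.5 mutant 3 (adjusted p = 0.0893) or E16.5 mutant 1 (adjusted p = 0.0862) and that of Adm on leaving out E14.5 mutant 1 (adjusted p = 0.0520), E14.5 mutant 3 (adjusted p = 0.133), E16.5 mutant 1 (adjusted p = 0.126) or E16.5 mutant 3 (adjusted p = 0.0552).

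The ratio of a pair of related genes within a library does not depend on the scaling of libraries. For 13 such pairs, log2 ratios were compared between 3 mutants and 3 controls at each age with a two-sided exact permutation test, which cannot go below p = 0.1 (0.173 after adjustment over the 26 tests), so no ratio can pass the threshold. The groups did not overlap for 9 of 13 pairs at E14.5 and 6 of 13 at E16.5, beside 28.6% and 42.9% of all genes tested whose own CPM did not overlap between the genotypes and 7.52% and 27.9% that were called. The 9 include Eno3/Eno1, whose denominator does not measure alpha-enolase, as stated above, and whose groups overlapped with a smaller pseudocount. The log2 ratio Aldoc/Aldoa was -4.69 ± 0.089 in controls and -4.00 ± 0.037 in mutants at E14.5, and Pgam2/Pgam1 was -3.02 ± 0.11 in controls and -4.01 ± 0.23 in mutants. At E16.5 Slc2a3/Slc2a1 was -4.91 ± 0.078 in controls and -4.43 ± 0.20 in mutants, and Egln3/Egln1 was -0.91 ± 0.037 in controls and -1.26 ± 0.15 in mutants (SD, n = 3). The ratio Epas1/Hif1a was lower in every mutant at both ages, with mutant minus control differences of -0.40 at E14.5 and -0.47 at E16.5. For P4ha2/P4ha1 these differences were -0.33 and -0.19, also without overlap, so that P4ha2 was lower relative to P4ha1 in mutants.

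**Figure D5:**
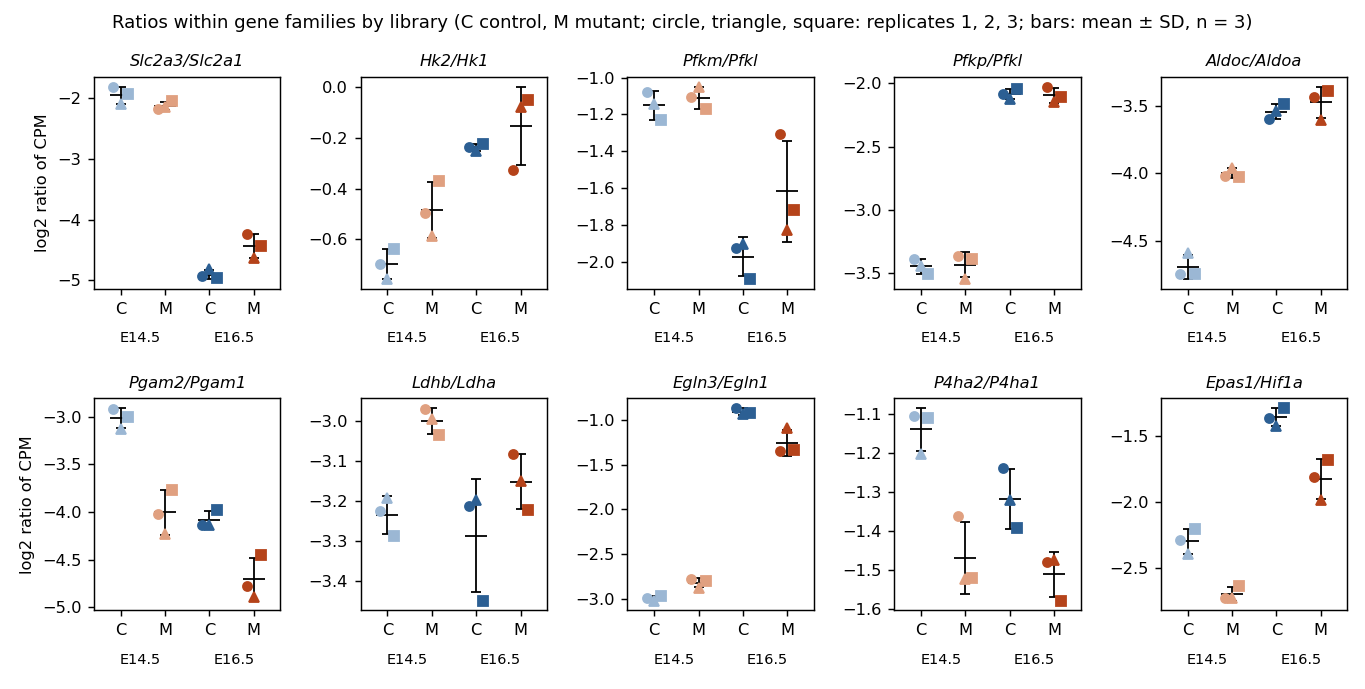
Log2 ratio of CPM for 10 pairs of related genes in each of the 12 libraries (C, control; M, mutant; marker shape gives the replicate number; bars are mean ± SD, n = 3); the vertical axes differ and do not start at 0. Hk2/Hk1, Aldoc/Aldoa and Ldhb/Ldha do not overlap between the E14.5 groups alone, and Slc2a3/Slc2a1 and Pfkm/Pfkl between the E16.5 groups alone. Pgam2/Pgam1, Egln3/Egln1, P4ha2/P4ha1 and Epas1/Hif1a do not overlap at either age.

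Other genes of the same pathways were counted from lists. At E14.5, 0 rose and 3 fell of 27 other glycolysis and glucose transport genes, 2 rose and 5 fell of 39 other HIF targets, and 1 rose and 1 fell of 20 HIF pathway regulators. Of all genes tested at that age, 2.95% were called higher and 4.57% lower. Lox, which cross-links collagen, fell from 511 ± 39.5 to 248 ± 29.4 CPM (log2 fold change -1.05 with SE 0.089, adjusted p = 7.11e-05), and the transporter gene Slc2a10 from 29.5 ± 1.11 to 21.4 ± 1.47 CPM (log2 fold change -0.46, adjusted p = 0.00512). Myc, a growth factor-responsive transcription factor listed with the regulators because it shares target genes with HIF, rose from 24 ± 6.80 to 88.5 ± 2.52 CPM (log2 fold change 1.89 with SE 0.17, adjusted p = 1.08e-04). Pdk4 and Pdk2, kinases that switch off pyruvate dehydrogenase, fell, with log2 fold changes of -0.56 and -0.30 (adjusted p = 0.00415 and 0.0149), the 2 called of 12 genes of that complex and its control. Hk3, Slc2a12, Insig2, Loxl2 and Hif3a had log2 fold changes of -0.66, -0.36, -0.35, -0.34 and -0.29, and Anxa1 of 0.37, all called, but the calls of Hk3, Slc2a12, Anxa1, Insig2, Loxl2, Hif3a and Pdk2 were each lost without at least 2 of the 6 libraries in turn. None of 8 pentose phosphate, 16 citrate cycle and 5 gluconeogenesis genes tested was called in edgeR or limma-voom at E14.5, while 3, 2 and 0 had an unadjusted p under 0.05 and DESeq2 called 1, 0 and 0.

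At E16.5, 4 rose and 17 fell of the 39 other HIF targets, with a median log2 fold change of -0.16 against 0.011 over all genes tested. Of all genes tested at that age, 12.2% were called higher and 15.7% lower. Vegfa, the growth factor that draws in vessels and a classic HIF target, fell from 103, 112 and 102 CPM in controls to 18.7, 33.1 and 31.1 CPM in mutants, with wide gaps between the groups (log2 fold change -1.92 with SE 0.18, adjusted p = 1.23e-04). At E14.5 Vegfa had 82 ± 5.37 and 90.7 ± 14.5 CPM (adjusted p = 0.425). Lox fell from 452 ± 52 to 76 ± 13 CPM (log2 fold change -2.55), and Selenbp1 and Rragd fell, with log2 fold changes of -1.38 and -1.10. Of 28 other glycolysis and glucose transport genes, 2 rose and 8 fell. The sperm-type enolase gene Eno4 fell from 19.8 ± 0.590 to 6.55 ± 0.592 CPM (log2 fold change -1.57 with SE 0.095, adjusted p = 1.28e-05) and the glycerol phosphate dehydrogenase gene Gpd1 from 8.04 ± 1.06 to 3.05 ± 0.479 CPM, while the inositol transporter gene Slc2a13 rose by 0.76. Of 20 HIF regulators, Myc rose again, from 38.8 ± 0.924 to 108 ± 24.8 CPM (log2 fold change 1.49 with SE 0.15, adjusted p = 1.49e-04), Arnt2, a partner of the HIF alpha subunits in neurons, rose by 0.48, and Cited4 fell, with a log2 fold change of -1.01, a call lost without mutant libraries 1 and 3 (adjusted p = 0.211). In the pentose phosphate, citrate cycle and gluconeogenesis lists the called genes were Rpia (0.30), Suclg1 (-0.25), Idh3a (-0.20) and G6pc3 (-0.39), of 8, 16 and 5 genes tested. The calls of Rpia, Suclg1 and Idh3a were each lost without mutant libraries 1 and 3 (adjusted p = 0.116, 0.307 and 0.395) and without at least 4 of the 6 libraries in turn. Of the 12 pyruvate dehydrogenase genes, 0 were called in edgeR, limma-voom or DESeq2 and 0 had an unadjusted p under 0.05. Calls of the other genes named at E16.5, among them Vegfa, Lox, Eno4 and Arnt2, were kept without mutant libraries 1 and 3 and without any library in turn.

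In the authors' deposited table for E14.5, 4 of the 35 genes with an adjusted p were higher and 6 lower in mutants at an adjusted p under 0.05. Besides the 8 genes called here, that table held Slc2a1 and Ldhb among the higher ones. In the authors' deposited table for E16.5, 3 of 36 were higher and 9 lower, and besides the 9 called here it held Gapdh as higher and Bnip3 and Epas1 as lower.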

How the data were processed

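RNA of anterior palate tissue was sequenced in 12 samples. Reads were aligned to mouse build mm9 with HISAT2 and deposited as raw counts per gene from featureCounts, per the submitters' processing notes; versions, annotation and strand setting are not given in the sources used here. Without a strand setting, reads of overlapping genes on opposite strands cannot be told apart. The authors also deposited DESeq2 comparison tables, whose log2 fold change and adjusted p-value columns were read. Another 24 columns of per-sample values in tables of the whole series were not used. In each file 27 genes have names turned into dates. They stayed in the fits and are not named.

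From the counts, edgeR 4.0.16 in R 4.3.3 gave TMM factors and quasi-likelihood tests after its filterByExpr filter. The genotypes were compared separately at each age, on 6 samples. The interaction and the comparisons of age came from 1 fit of 12 samples with 4 group means. A call is an adjusted p under 0.05 (Benjamini-Hochberg, over all genes tested), and the script was tested on simulated data. CPM are scaled by the TMM factors. Ratios used CPM with a pseudocount of 0.5. Transcript lengths and near-identical copies came from GENCODE transcripts and promoters from RefSeq (GRCm38.p6). No coordinates were converted between builds. Total counts were 76417891 to 125996587 per sample. Among the 36 genes, Eno1 had as few as 8 counts in a library and Adm 60, so counting error weighs most on these.

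The 36 genes and all gene and marker lists were chosen with earlier results of these data known. The text accounts for all 36, gives every library's value for those called between genotypes or in the interaction, and names up to 4 called genes with the largest change from each other list, at a mean log2 CPM of at least 1. One gene that this rule names is not reported here. Alternatives covered scaling, DESeq2 1.42.0 and limma-voom (limma 3.58.1), filters, a replicate block, the choice of samples and leaving out each library. Pairing by replicate number was checked from correlations of deviations from group means over 13885 genes. Same-numbered E16.5 samples gave 0.205, 0.237 and 0.698, and controls across ages 0.165, 0.249 and 0.616, all above a limit of 0.1. E14.5 samples gave 0.0683, 0.133 and 0.584, and mutants across ages 0.0508, 0.0765 and 0.644, which by this limit does not pair them. Samples of different numbers could also pass the limit, with 0.231 for E14.5 control 2 and mutant 1. The limit therefore does not show that samples were paired. The libraries numbered 3 deviated together in all 4 of these pairs of groups (0.584 to 0.698) and opposite to those numbered 1 and 2 (-0.435 to -0.175). Deviations from a group mean cancel out within the group, so the opposite sign follows in part from the shared deviation itself. The labels used here name no batch, so a term for these libraries was an alternative.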

Additional observations from a re-analysis of the deposited data

Results flagged for a closer look

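For 6 of the 36 genes the genotype effect differed between E14.5 and E16.5 in a test of the difference itself, in edgeR's fit of all 12 samples, where 22.3% of all genes were called. Aldoc was higher in E14.5 mutants only among the calls, and its effect was lower at E16.5 by a log2 difference of -0.69 (SE 0.11, adjusted p = 8.26e-04). For Egln3 the log2 difference was -0.61 (SE 0.13, adjusted p = 0.00503), with every mutant below every control at E16.5. At E14.5 every mutant lay above every control, but by a small gap (14.6 against 14.4 CPM). The E14.5 rise was not called in the test at that age (adjusted p = 0.261). Bnip3 gave -0.32 (SE 0.082, adjusted p = 0.0141), with effects of 0.097 at E14.5 and -0.20 at E16.5, neither called alone. Slc2a3 gave 0.32 (SE 0.10, adjusted p = 0.0441) and Pfkm gave 0.32 (SE 0.086, adjusted p = 0.0201), both with a rise called at E16.5 alone. P4ha2 gave 0.37 (SE 0.11, adjusted p = 0.0317), with a fall called at both ages. Without E16.5 mutant libraries 1 and 3, the adjusted p of the difference was 0.00539 for Aldoc, 0.0450 for Egln3, 0.182 for Bnip3, 0.208 for Slc2a3, 0.0971 for Pfkm and 0.126 for P4ha2. The libraries whose removal ended a call are given with the interaction above. Groups of 3 samples are too small for a test of outlying samples.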

How the results depend on the processing

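No call among the 36 genes reversed its direction under any alternative tried. The number of genes called higher and lower was 2 and 6 at E14.5, 2 and 7 at E16.5, 3 and 3 for the interaction, 18 and 8 with age in controls and 14 and 7 with age in mutants. With a block for the replicate number, it was 4 and 11 at E14.5 and 6 and 7 for the interaction. A fit with a term for libraries numbered 3 gave 4 higher at E14.5 and 6 and 7 for the interaction. DESeq2's Wald test called 4 higher at E14.5, and upper-quartile factors gave 5 higher for the interaction. With replicates 1 and 2 alone, 0 were higher and 2 lower at E16.5, 0 were higher for the interaction and 4 were lower with age in mutants. Without E16.5 mutant libraries 1 and 3, 1 was higher and 2 lower at E16.5, 0 were higher for the interaction and 4 were lower with age in mutants. A filter of 5 CPM in 3 samples also gave 4 lower with age in mutants.

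Leaving out a library gave 2 to 3 higher and 3 to 7 lower at E14.5, 1 to 2 higher and 2 to 6 lower at E16.5, and 0 to 5 higher and 2 to 4 lower for the interaction. The interaction had 0 higher without E14.5 control library 1, 1 without E14.5 control library 3 or E16.5 mutant library 1, and 5 without E14.5 control library 2 or E16.5 mutant library 2. With age, the counts were 14 to 19 higher and 8 to 9 lower in controls, and 13 to 15 higher and 4 to 5 lower in mutants. The number of family ratios whose groups did not overlap ran from 9 to 10 for E14.5 and from 6 to 8 for E16.5 with a library left out, and was 8 and 6 with a pseudocount of 0.1 CPM. The cause of these differences was not tested, beyond the smaller number of samples where libraries were left out.

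At E14.5, Aldoc, Gapdh, Pgam2, Eno3 and P4ha2 were called under all 16 alternatives, and at E16.5 Ankrd37 under all 17. By the limit of 0.1 the replicate numbers do not pair the E14.5 samples, and the block there adds Slc2a1, Hk2, Aldoa, Ldhb, Slc16a3, Ndrg1 and Epas1 to the calls. All genes called numbered 1252 at E14.5 and 4793 at E16.5, against 3155 and 6742 with the block, and between 526 and 1412 and between 2781 and 5486 with a library left out. Depth limits Eno1 most, with as few as 8 counts in a library, and then Adm, with 60.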
